A study of Mus musculus with 3 samples.

Results

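The insulin-like growth factor (Igf) axis and its pappalysin proteases comprised 10 genes here, chosen by name: the ligands Igf1 and Igf2, the receptor Igf1r, the binding proteins Igfbp2, Igfbp3, Igfbp4, Igfbp5 and Igfbp6, and the proteases Pappa and Pappa2. Every non-control spot whose gene name in the scanner files equalled a member symbol was taken, which gave 17 of the 55680 probes on the array. The tissue was the mouse posterior frontal suture, which joins the paired frontal bones along the midline, and RNA was measured on 3 Agilent arrays of Cy3-labelled cRNA. All mice were C57BL/6. The groups were wild type (Runx2+/+) at postnatal day 5 (P5), wild type at P7, and Runx2+/- at P7, with 1 array each. Runx2 encodes the transcription factor that osteoblast differentiation requires, and Runx2+/- mice keep 1 intact copy in every cell. The labels state neither the number or sex of the mice behind an array nor the part of Runx2 that the mutant allele lacks. No group was replicated, so the differences below are between single arrays, carry no p-value and have no replicate check.

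Igf1 and Igf2 are secreted growth factors that act through the receptor tyrosine kinase Igf1r. Igfbps hold the ligands outside the cell, and proteases that cut an Igfbp set its ligand free. Pappa is known to cut Igfbp4 and Igfbp5 and Pappa2 to cut Igfbp3 and Igfbp5, while the stanniocalcins Stc1 and Stc2 inhibit both proteases. Bone is a rich store of Igfs, and osteoblasts both secrete Igfs and Igfbps and respond to them.

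The probes differed in how many stood for each gene, and this shaped what could be read. Igf1 had 5 probes, each spotted 2 times on an array, while Igfbp2, Igfbp3 and Pappa2 had 2 probes and the other genes 1. The first 30 of the 60 bases of the probes on which the results turn are given 5′ to 3′, to show that they are separate targets or share bases. Probes are numbered by ascending position on the chromosome, which for Igf1 is the direction of transcription. Capitals mark the bases that Igf1 probes 2 and 3 have in common.
Igf1 probe 1: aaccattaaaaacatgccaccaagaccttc
Igf1 probe 2: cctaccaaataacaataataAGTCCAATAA
Igf1 probe 3: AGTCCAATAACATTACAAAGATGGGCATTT
Igf1 probe 4: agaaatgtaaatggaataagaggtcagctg
Igf1 probe 5: ctcctgattgtatttgaagtggttattcaa
Igf2: atcaaattatgtggtaattctgcaatgtag
Igfbp2 probe 1: catctcttctacaacgagcagcaggagact
Igfbp2 probe 2: aggagttcccagttttgacacatgtattta
Pappa2 probe 1: cagtgaaaggggctgatctactgtattgta
Igf1 probes 2 and 3 overlap by 40 of 60 bases and are not independent measurements. The Igfbp2 probes do not overlap, since the probe nearer the 3′ end starts after the other has ended. The location of a probe is given on mm9, as in the files, and which exon or untranslated region it falls in was not determined.

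The arrays differed in brightness. A probe counted as measured on an array where the scanner software called it well above background, which held for 40.1% of probes on the P5 wild-type, 29.2% on the P7 wild-type and 47.3% on the Runx2+/- array. Levels are therefore given as scanner intensity and as log2 of that intensity minus the log2 of the array's 75th percentile, which was 52.1, 22.8 and 124 intensity units in that order. Replicate spots within an array, from probes with at least 5 spots, gave a technical SD for a log2 difference of 0.219 for age and 0.201 for genotype. It covers spot noise only, not variation between hybridizations or animals, so multiples of it do not measure significance. Here age stands for P7 minus P5 wild type and genotype for Runx2+/- minus wild type at P7. The spread among probes of 1 gene was wider, at 0.443 and 0.565 (root mean square SD). The osteoblast markers Col1a1, Bglap2, Alpl, Ibsp, Sp7 and Dmp1 were all well above background on each array. Runx2 itself gave 271, 62.4 and 262 intensity units with its brightest probe, a scaled log2 difference of -0.38 between Runx2+/- and wild type at P7. The other Runx2 probes, at 13.4 and 4.07 intensity units, did not count as measured in wild type at P7. They therefore gave no direction for genotype. Xist RNA, made from the inactive X, gave 284, 87.4 and 14.5 intensity units and the Y-linked Ddx3y 28.4, 3.28 and 429, the middle Ddx3y value not being well above background. Y-linked Eif2s3y was likewise well above background at P5 and in Runx2+/- but not at P7 in wild type. The sex of the animals therefore cannot be told apart from genotype at P7, nor from age in wild type.

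In the Runx2+/- suture at P7, Pappa2 and Igfbp2 were higher and Igf2 was lower than in the wild-type suture of that age, and the other 7 genes lay within 2-fold. Pappa2 was 5.13-fold higher, Igfbp2 2.65-fold higher and Igf2 3.33-fold lower. Thus 2 of 10 members were at least 2-fold higher and 1 of 10 at least 2-fold lower. Of the 12404 genes with an order, 5.72% were at least 2-fold higher and 9.97% at least 2-fold lower. The members were chosen with earlier results of these data known, so setting their counts beside these shares is a description only. After normexp background correction with the 75th percentile the shares of all genes were 33.7% and 2.66%. The median of all probes then stood at 0.63 for genotype and -0.25 for age, an offset that every member value under that setting shares. The median log2 difference of the members was 0.14, against 0.19 for all those genes. In bulk tissue, fewer cells of a type and less RNA per cell cannot be told apart. Igfbp2, Pappa2 and Pappa were at least 1.5-fold higher and Igf2 and Igfbp5 at least 1.5-fold lower, as were 21.4% and 16.6% of genes, while at 3-fold Pappa2 was higher and Igf2 lower, against 0.798% and 5.08%. From P5 to P7 in wild type no member was 2-fold apart, where 5.14% of 12214 genes were at least 2-fold higher and 3.19% at least 2-fold lower. At 1.5-fold, Igfbp2, Igfbp4 and Igfbp5 were higher and Igfbp6 lower, thresholds that 14.7% and 10.9% of genes passed, although Igfbp2, Igfbp4 and Igfbp5 stood at -0.03, 0.05 and -0.12 after normexp with the 75th percentile. The median over members was 0.28, against 0.03 for all genes, and turned to -0.15 under that setting. Both comparisons use the P7 wild-type array, so a value that is too high or too low there pushes them in opposite directions.

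**Figure D1:**
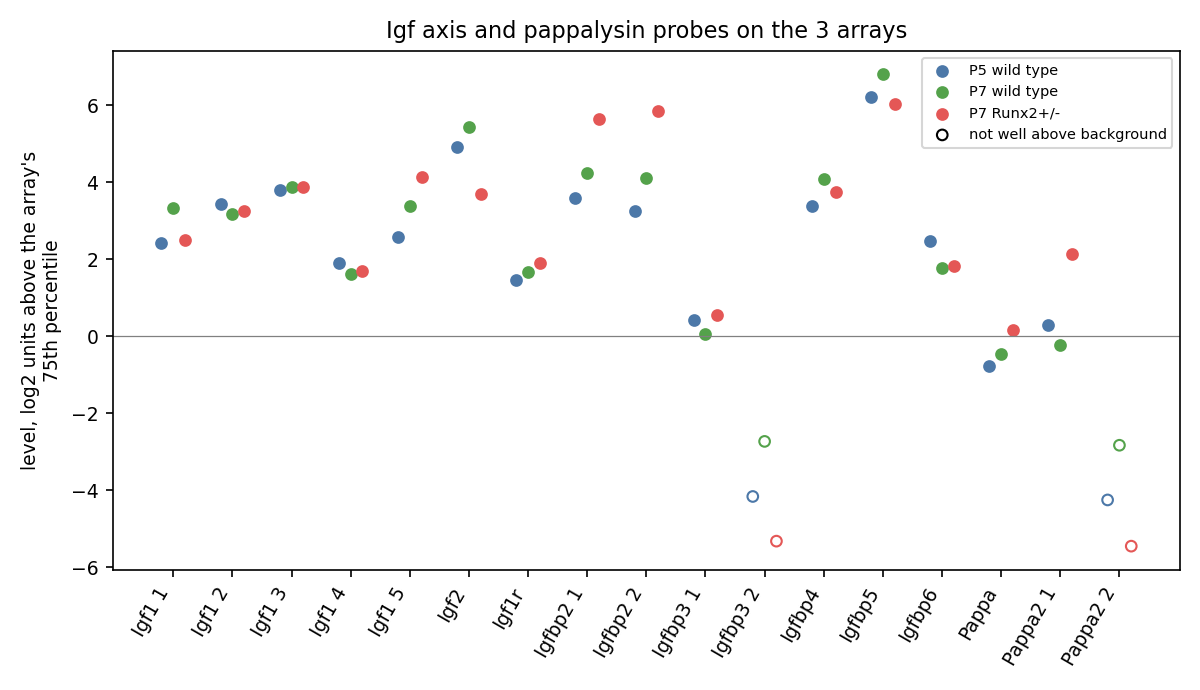
Level of each of the 17 probes on the 3 arrays, in log2 units relative to the 75th percentile of the array (1 point per array, no error bar, probes of a gene numbered by ascending position on the chromosome). Both Igfbp2 probes and the first Pappa2 probe were highest and Igf2 lowest on the Runx2+/- array. By smaller steps, the brightest and the most 3′ Igf1 probes, Igf1r, the first Igfbp3 probe and Pappa were also highest there, and Igfbp5 lowest. On none of the arrays did 2 probes (open circles) pass the detection call.

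Igf2, the fetal and early postnatal ligand, was measured by a single probe (chromosome 7, 149839661 to 149839720, minus strand). Its intensity was 1575 on the P5 wild-type, 976 on the P7 wild-type and 1600 on the Runx2+/- array, and its scaled level 4.92, 5.42 and 3.69. The raw intensities of the P5 wild-type and Runx2+/- arrays were thus alike. After scaling, which takes account of the brighter Runx2+/- array, its level lay below both wild-type levels. The log2 difference was -1.74 for genotype, 8.65 times the technical SD, and 0.50 for age, the latter turning to -0.28 after normexp with the 75th percentile. Against the P5 wild-type array, which differs in age as well, the log2 difference of Runx2+/- was -1.23. Of 11048 genes measured on all arrays, 5.58% lay at least 2-fold below both wild-type arrays. After normexp the genotype difference was -0.48 with the 75th percentile and -1.19 with median scaling.

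H19, the maternally expressed noncoding RNA that shares an imprinted domain with the paternally expressed Igf2, was measured by 7 probes. Its brightest probe gave 86268, 39960 and 114144 intensity units, a genotype log2 difference of -0.94. These probes, all well above background on each array, ranged from -1.31 to 0.19 for genotype and from -1.1 to 0.55 for age. The brightest probe was among the strongest signals of the array, and its genotype difference turned to 0.85 with quantile normalization.

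Igf1, the ligand that mediates much of the action of growth hormone, did not give a single direction. Its brightest probe, probe 3 (chromosome 10, 87393581 to 87393640, plus strand), read 733, 332 and 1832 intensity units and 3.81, 3.87 and 3.88 after scaling. On this probe the 3 arrays lay within 0.07 log2 units of each other, less than the technical SD, but normexp with the 75th percentile moved its differences to -0.50 for age and 1.07 for genotype. Probe 2 (87393561 to 87393620), which overlaps it, gave 3.43, 3.17 and 3.25, and probe 4 (87395924 to 87395983) gave 1.90, 1.62 and 1.69. These 3 probes put the genotype difference between 0.01 and 0.07.

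The outermost Igf1 probes went apart. Probe 1 (87378456 to 87378515), which the files assign to another Igf1 transcript than probes 2 to 5, gave scaled levels of 2.41, 3.34 and 2.49, with the P7 wild-type array highest. Its log2 difference was 0.93 for age and -0.86 for genotype. Probe 5 (87399581 to 87399640), the most 3′, gave 2.57, 3.38 and 4.13, with the Runx2+/- array highest. Its difference was 0.81 for age and 0.75 for genotype, and it lay 1.56 above the P5 wild-type level in Runx2+/-. The 2 spots of each Igf1 probe differed by a median of 0.0444 log2 units over 15 pairs and by 0.335 at most, so the spread between probes exceeded that between spots.

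**Figure D2:**
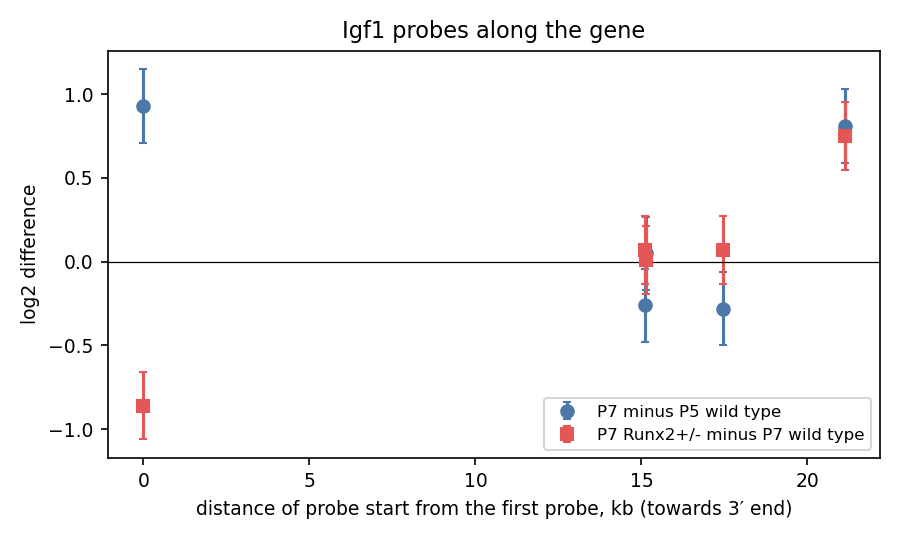
Log2 difference of the 5 Igf1 probes for age (circles) and genotype (squares) against genomic distance in kb from the first probe towards the 3′ end, with bars of 1 technical SD. Genotype differences ran from -0.86 at the first probe to 0.75 at the last, with the 3 middle probes near 0.

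A like tilt was present in other transcripts. Among 615 RefSeq transcripts with probes 1000 to 10000 bases apart on the genome, the most 3′ probe exceeded the most 5′ probe in the genotype difference by a median of 0.15, and it was the higher in 60.2%. The corresponding median for age was 0.31 over 611 transcripts, with 69.7% above 0. For the Igf1 transcript of probes 2 to 5, whose outer probes start 6020 bases apart, the excess was 0.67 for genotype and 1.08 for age. Of all those transcripts, 24.2% and 8.18% had an excess at least as large. The part of this tilt in the Igf1 values was not tested.

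Igf1r, the receptor for both ligands, was measured by 1 probe (chromosome 7, 75378461 to 75378520, plus strand). It gave 142, 72.8 and 466 intensity units and scaled levels of 1.45, 1.68 and 1.91. Each step between arrays in that order was 0.23 log2 units, 1.07 and 1.14 times the technical SD, so neighbouring arrays were hardly further apart than replicate spots. The age difference turned to -0.08 after normexp with the 75th percentile and the genotype difference to -0.02 with cyclic loess.

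Igfbp2, a binding protein abundant in fetal and early postnatal tissue, was highest in Runx2+/- on both probes. Probe 1 (chromosome 1, 72898677 to 72898736, plus strand) gave 622, 431 and 6242 intensity units, which became 3.58, 4.24 and 5.65. Probe 2 (72898813 to 72898872) gave 500.2, 396 and 7153, which became 3.26, 4.12 and 5.85. The probes were thus 1.41 and 1.73 higher in Runx2+/- than in wild type at P7, and 2.07 and 2.58 higher than at P5. For age they were 0.66 and 0.86 higher, the first turning to -0.03 after normexp with the 75th percentile. The order P5 wild type, P7 wild type, Runx2+/- held on both probes, and each step was at least 3.03 times the technical SD. The genotype difference of Igfbp2 was at least 2-fold under all 11 alternatives run, between 1.31 and 2.50.

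Igfbp5, the binding protein that adheres to bone matrix, lies next to Igfbp2 on chromosome 1 and is read from the opposite strand. Its probe (72904829 to 72904888) starts 5957 bases beyond the end of the last Igfbp2 probe. Intensities of 3820, 2531 and 8149 became scaled levels of 6.20, 6.80 and 6.03. The P7 wild-type array was highest and the Runx2+/- array was close to the P5 array, at a difference of -0.16. The difference was 0.60 for age and -0.76 for genotype, 3.80 times the technical SD, but -0.12 and 0.51 after normexp with the 75th percentile. Igfbp2 and Igfbp5 thus lay on opposite sides of 0 for genotype in the reported values. Under that alternative both lay above 0, but the median of all probes was itself at 0.63. With normexp and median scaling they again lay on opposite sides, at 1.78 and -0.21.

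Igfbp4, which inhibits Igf action and is the classical substrate of Pappa, was likewise highest on the P7 wild-type array. Its probe (chromosome 11, 98913334 to 98913393, plus strand) gave 540.5, 385 and 1662 intensity units and 3.38, 4.08 and 3.74 after scaling. The age difference was 0.71, 3.22 times the technical SD, but 0.05 after normexp with the 75th percentile. The genotype difference was -0.34, 1.69 times the technical SD, and turned to 0.07 and 0.78 after normexp with either scaling.

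Igfbp3, the main carrier of Igfs in the circulation, was dim. Its probe 1 (chromosome 11, 7106594 to 7106653, minus strand) gave 69.2, 23.7 and 184 intensity units and 0.41, 0.06 and 0.56 after scaling. The differences were -0.35 for age and 0.50 for genotype, and each turned its sign after normexp with median scaling, to 0.11 and -0.38. The other Igfbp3 probe (7107949 to 7108008), designed to a different transcript model, passed the detection call on no array, at 2.91, 3.42 and 3.11 intensity units.

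Igfbp6, which prefers Igf2 over Igf1, was lower on both P7 arrays than at P5. Its probe (chromosome 15, 101979852 to 101979911, plus strand) gave 288, 78.1 and 439 intensity units and 2.47, 1.78 and 1.82 after scaling. The age difference was -0.69, between -0.93 and -0.64 over the alternatives. The P7 arrays were 0.04 apart, less than the technical SD, and the sign of that difference changed with the setting (-0.20 with cyclic loess and 0.69 after normexp with the 75th percentile).

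Pappa2 differed more in Runx2+/- than the other 9 genes in the reported values, but after normexp Igfbp2 exceeded it, at 2.50 against 1.71 with the 75th percentile and 1.78 against 0.99 with median scaling, where Igf2 at -1.19 was also further from 0. Pappa2 probe 1 (chromosome 1, 160641903 to 160641962, minus strand) gave 64.0, 19.5 and 546 intensity units and 0.30, -0.22 and 2.13 after scaling. The age difference was -0.52, or 0.12 after normexp with median scaling. The Runx2+/- array was 2.36 above the P7 and 1.84 above the P5 wild-type array, 11.7 times the technical SD for the comparison at P7. The P7 wild-type intensity was near the lowest value called well above background on that array, 13.3, and its scanner error was 3.8 units. Normexp added an offset of 50 units, which by itself shrinks the differences of dim probes such as this one and those of Pappa and Igfbp3. The second Pappa2 probe (160762959 to 160764912, spanning 1954 bases of the genome) passed the detection call on no array, at 2.73, 3.19 and 2.85 intensity units.

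Of 11048 genes measured on all arrays, 2.53% were at least 2-fold above both wild-type arrays in Runx2+/-, and Pappa2 and Igfbp2 were the members among them. Pappa, the other pappalysin, was dim, at 30.3, 16.6 and 138 intensity units (chromosome 4, 65018429 to 65018488, plus strand). Its scaled levels were -0.78, -0.46 and 0.15, a difference of 0.33 for age and 0.60 for genotype. Pappa lay in the dimmest of 8 equal brightness groups, whose median genotype difference was -0.70, and its own difference turned to -0.44 after normexp with median scaling. Pappa2 lay in the third group, whose median was 0.25, and Igfbp2 in the brightest, whose median was -0.09.

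**Figure D3:**
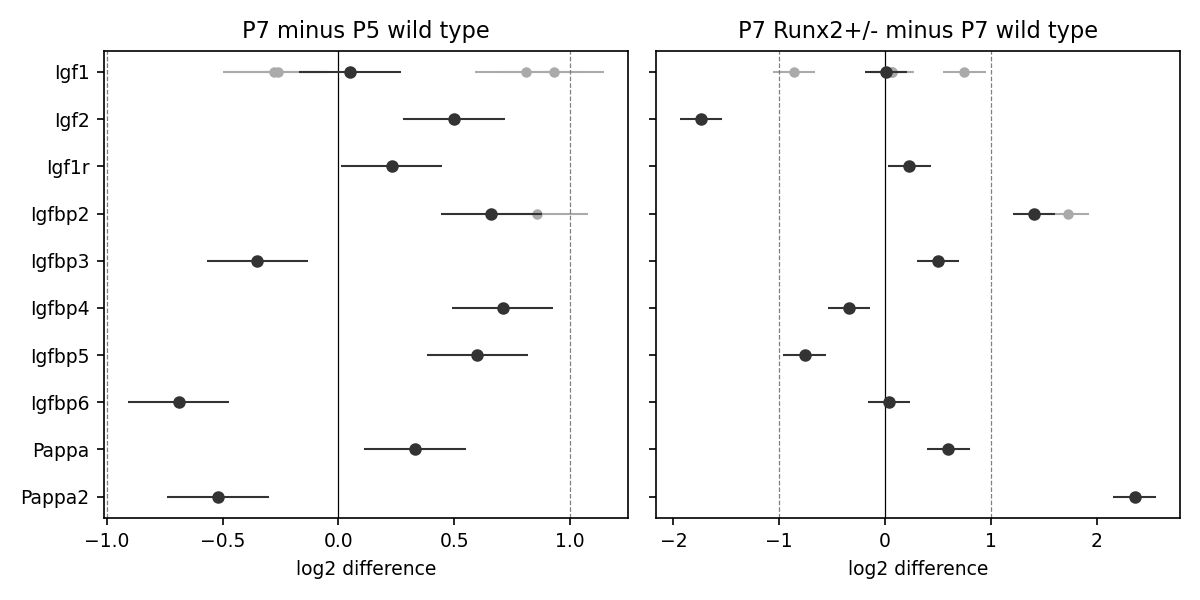
Log2 difference of each member for P7 minus P5 wild type (left) and P7 Runx2+/- minus P7 wild type (right), with the brightest probe in black, other measured probes in grey, and bars of 1 technical SD. Dashed lines mark 2-fold, and in the right panel Igf2 (-1.74), Igfbp2 (1.41) and Pappa2 (2.36) lie beyond them.

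Other genes of the pathway were described from a list of 35. For genotype, 25 had an order between the arrays, of which 0 were at least 2-fold higher and 1 at least 2-fold lower, where 5.72% and 9.97% of all genes were. Their median was 0.00, or 0.61 after normexp with the 75th percentile. That 1 gene was Irs4, an adaptor of the insulin and Igf receptors, whose brightest probe passed the detection call on no array but that of P7 wild type. This probe read 11.8, 19.5 and 12.9 intensity units, a signal near the detection limit. After scaling, Irs4 was at least 8.15-fold lower in Runx2+/- and at least 3.73-fold higher at P7 than at P5. Neither of the 2 Irs4 probes was well above background on both arrays of either comparison. After normexp with the 75th percentile its log2 bounds were -1.25 for genotype and 0.61 for age, the latter under 2-fold. Igf2bp3 gave only a lower bound for genotype, 0.09, so a 2-fold increase is not excluded there. Its probe read 77.4 intensity units in Runx2+/- and 6.03, not well above background, in wild type at P7. For age, 24 had an order, 3 were at least 2-fold higher and 1 at least 2-fold lower, where 5.14% and 3.19% of all genes were. Their median was 0.21, or -0.24 after normexp with the 75th percentile. Grb14 and Stat5a, a receptor-binding inhibitor and a transducer of growth hormone signals, were 1.13 and 1.06 higher at P7, but 0.42 and 0.33 after normexp with the 75th percentile. Grb10, an imprinted adaptor that dampens insulin and Igf receptor signals, was 2.05-fold lower at P7, at 2725, 579.6 and 2563 intensity units. Its age difference of -1.04 became -0.90 with the authors' intensity values, under 2-fold, and -1.64 after normexp with the 75th percentile. The genotype difference of Grb10 was -0.31, or 0.93 after normexp with the 75th percentile.

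The pappalysin inhibitors were sparse. Stc2 gave 57.7, 23.1 and 65.3 intensity units and was 1.93-fold lower in Runx2+/- than in wild type at P7 (log2 difference -0.95), while the age difference was -0.12, or 0.25 after normexp with median scaling. Stc1 was detected on none of the arrays. Prg2, also listed as an inhibitor, read 6.87, 3.35 and 16.2 intensity units. It was well above background on the Runx2+/- array only and gave no order. Igf2r, which clears Igf2 from the cell surface, gave 349, 255 and 1156 intensity units, a difference of 0.74 for age and -0.27 for genotype, the latter turning to 0.79 after normexp with the 75th percentile. Ghr, the growth hormone receptor, was 0.96 higher in Runx2+/- with its brightest probe and 1.06 higher with its other probe, and between 0.72 and 1.53 higher over the alternatives. The remaining binding-protein genes Igfals, Igfbp1, Igfbp7 and Igfbpl1 were detected on none of the arrays. Each of these 4 was represented by 1 probe.

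**Figure D4:**
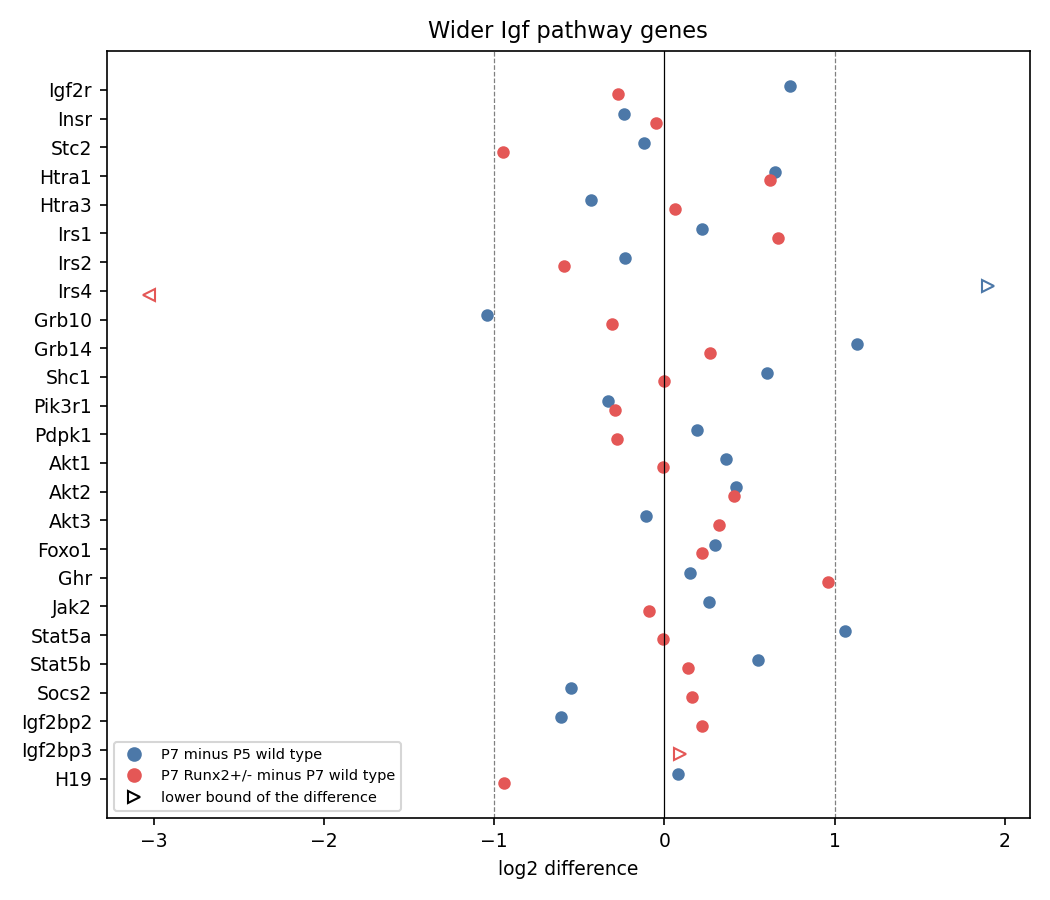
Log2 difference of the 25 wider pathway genes with an order in at least 1 comparison, for age (blue) and genotype (red), from the brightest probe of each gene. Triangles are lower bounds and dashed lines mark 2-fold. All genes but Irs4 are drawn within 2-fold for genotype in the values as reported. For Igf2bp3 the point is a lower bound (0.09), so it is not known to lie within 2-fold.

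Markers of several cell types differed with the genotype on the same arrays. All 6 osteoblast markers were lower in Runx2+/- than in wild type at P7, 5 of them at least 2-fold, with a median of -2.29, which stayed between -2.39 and -1.02 over the alternatives. Their summed level, in multiples of the array's 75th percentile, was 835, 1308 and 258 on the 3 arrays. Among endothelial markers 3 of 5 were at least 2-fold higher and 1 at least 2-fold lower. The lower marker was Kdr, whose 2 probes went opposite ways, at -1.97 and 1.87. The summed levels of the 5 markers were 112, 110.0 and 183, and the median genotype difference was between 0.93 and 1.65 over the alternatives. Most of the sum on the Runx2+/- array came from Egfl7, at scaled levels of 5.90, 5.64 and 7.25. The brightest Kdr probe, at 5.48, 5.72 and 3.75, went the other way, so the sum describes Egfl7 more than the list. Fibrous mesenchyme markers were higher in 5 of 5 with an order, 2 of them at least 2-fold, with sums of 548, 595 and 789, and the sixth, Dpt, was not detected on the P7 wild-type array. The genotype medians of the osteoblast, endothelial, fibrous, chondrocyte, neutrophil, macrophage and adipocyte lists kept their sign under the alternatives, and those of the leptomeningeal (-0.15, from -0.34 to 0.63), muscle (0.38, from -1.42 to 0.44) and neural lists (0.04, from -1.01 to 0.04) did not. Chondrocyte markers summed to 11.4, 21.1 and 30.4, with Matn1 undetected on both wild-type arrays and Sox9 on that of P7. For genotype 4 of 5 were higher, 2 of them at least 2-fold, and Acan was lower at -0.67. Adipocyte markers summed to 67.4, 38.0 and 94.9, with Adipoq and Plin1 detected on none of the arrays. Neutrophil markers were at least 2-fold higher in 5 of 5 for genotype, with a median of 3.18, and at least 2-fold lower in 5 of 5 for age. They summed to 821, 66.8 and 324, and macrophage markers to 53.7, 65.8 and 65.6. The macrophage genotype median was 0.48, from 0.11 to 1.02 over the alternatives, against 0.19 for all genes. Of the macrophage markers, 4 were higher and 1, Cd68, was lower, at -1.10. Neural markers summed to 11.7, 5.37 and 5.42, and skeletal muscle markers to 7.22, 4.74 and 4.41, with Ckm, Myh4 and Mylpf detected on none of the arrays. Leptomeningeal markers, of a tissue that is known to express Igf2 and Igfbp2, summed to 63.1, 17.5 and 15.2. Most of the P5 sum was Ptgds, at scaled levels of 5.60, 2.83 and 2.16. The transporter gene Slc47a1 of this list was detected on none of the arrays, and neither P7 array detected Slc22a6. Slc6a13 was not detected in wild type at P7. The part of any of these cell types in the Igf2, Igfbp2 and Pappa2 values was not tested.

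The genes whose age and genotype differences came closest to those of the 2 extreme members were found among 11048 genes measured on all arrays. For Pappa2 they were Slc1a3 (distance 0.13 log2 units over the 2 differences), Angptl1 (0.27) and Cma1 (0.37). Slc1a3 encodes a glutamate transporter, Angptl1 a secreted angiopoietin-like protein and Cma1 a mast cell chymase, and their genotype differences were 2.36, 2.11 and 2.02. For Igf2 they were Dpp6, Aanat and Mt3, at distances of 0.03 to 0.04 and genotype differences of -1.75, -1.77 and -1.70. Over 3 arrays such likeness describes the arrays only.

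Promoter sequences from RefSeq (GRCm38.p6) matched 9 of the 10 members, with 13 start sites. The hexamer TGTGGT, the core letters bound by Runx proteins, was searched on both strands of the 250 bases upstream of each start site. It was found at 1 of the 13 (7.69%), where 14.0% of 32851 promoters held it. The match lay in Igfbp3 at position -223 from the start site (chr11:7213924-7214173, minus strand), in capitals in the sequence that follows, shown because it was the only member to hold it.
Igfbp3 promoter: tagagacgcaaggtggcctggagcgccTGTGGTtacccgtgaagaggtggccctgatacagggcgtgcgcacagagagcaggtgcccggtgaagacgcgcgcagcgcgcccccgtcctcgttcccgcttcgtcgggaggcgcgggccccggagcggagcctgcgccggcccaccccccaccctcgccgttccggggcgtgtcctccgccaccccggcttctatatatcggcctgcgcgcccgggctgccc
A share this close to the background is no result about the members. No match in Igfbp2, Igf2 or Pappa2 says only that these letters are not in those windows.

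**Figure D5:**
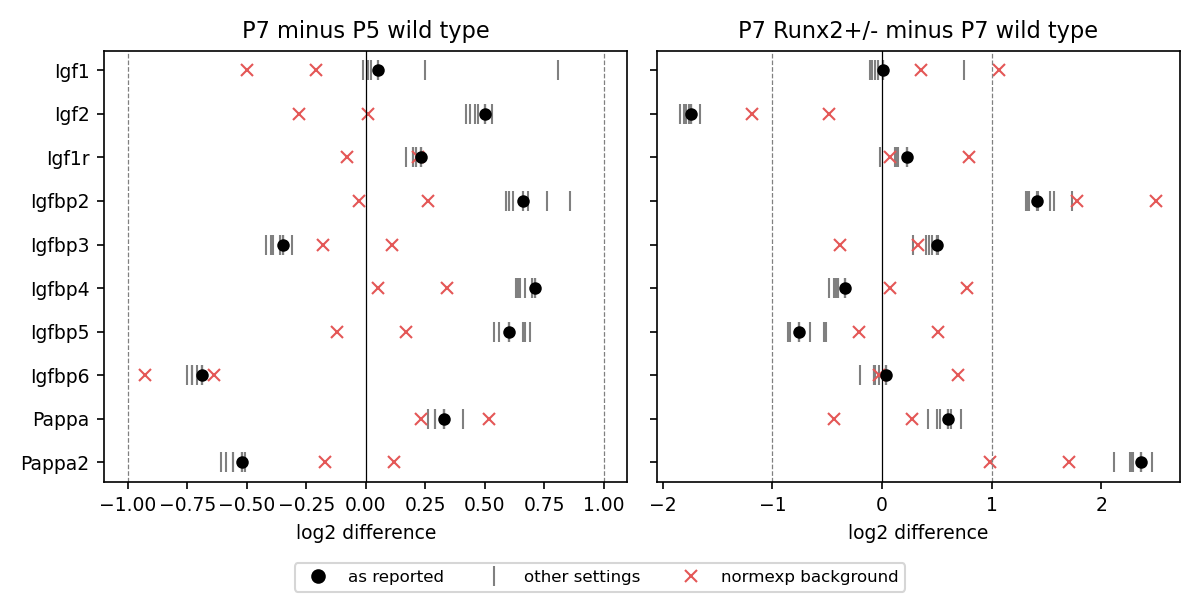
Log2 difference of each member as reported (black circles), under 9 other settings (grey ticks) and under 2 settings with normexp background correction (red crosses). For genotype, Igfbp2 lay at 1.31 or above, Pappa2 at 0.99 or above and Igf2 at -0.48 or below in all of them, while Igf1, Igf1r, Igfbp3, Igfbp4, Igfbp5, Igfbp6 and Pappa crossed 0.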

How the data were processed

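Sutures gave total RNA, which was amplified with Cy3 label and read on 3 arrays, 1 for each group in the labels. Feature Extraction (10.7.1.1 per the file headers, 9.5.1.1 per the submitters' processing notes) gave the deposited processed intensity, corrected for background and spatial trend but not scaled between arrays. A table of the authors' intensity values, with column medians of 12.6 and unstated steps and scale, was used as an alternative.

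Control spots and outlier spots were left out, spots of a probe were averaged as log2, and each array's 75th percentile was subtracted. In counts and medians the brightest probe stood for a gene. Where a single array was well above background, the difference is a lower bound against the higher of the dim value and that array's detection floor. Genes were named by RefSeq accession where possible, and unnamed probes were not counted as genes. With 1 array per group no test was run. Differences of 2-fold or more were counted and set beside the share among all genes. The precision is limited by the number of arrays. The members, lists and naming rules were chosen with earlier results of these data known. The steps were tested on simulated data. Normexp (offset 50), quantile and cyclic loess used limma 3.58.1 in R 4.3.3.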

Additional observations from a re-analysis of the deposited data

How the results depend on the processing

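No paired analysis was possible because each group has 1 array. For the same reason no array could be left out. Of 110 recomputed member differences per comparison, 94 for age and 85 for genotype moved by no more than the technical SD. No difference of 2-fold or more changed sign. Part of these 110 could not move, so the counts overstate stability. Changes of the detection filter returned the reported value for every member, and changes of probe choice could alter only Igf1 and Igfbp2. Normexp with the 75th percentile moved the median of all probes to -0.25 for age and 0.63 for genotype. It took the member median to -0.15 and 0.74, left 0 genotype members at least 2-fold lower and raised those at least 2-fold higher to 3, and the share of all genes at least 2-fold higher for genotype to 33.7%. With normexp and median scaling 1 member was at least 2-fold higher for genotype. The genotype median was 0.37 when the most 3′ probe stood for a gene. At 1.5-fold, 3 members were higher and 1 lower for age (14.7% and 10.9% of all genes), and 3 higher and 2 lower for genotype (21.4% and 16.6%). At 3-fold, 1 was higher and 1 lower for genotype (0.798% and 5.08%) and 0 either way for age. The 75th percentile of probes above background on all arrays was tried after seeing the data and gave medians of 0.21 and 0.06. With cyclic loess the genotype median was -0.06. The brightness of the P7 wild-type array limits Pappa, Pappa2 and Igfbp3, which lay near its detection floor.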
